A study of Mus musculus with 12 samples.

Results

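The Gnas locus on mouse chromosome 2 was described here as the CpGs between positions 174100000 and 174165000 of the mm9 build that held at least 10 reads in any of 12 bisulfite libraries, with the strands of a CpG summed. The rule found 486 CpGs, of 2154830 in the whole series. The libraries came from bone marrow LSK cells, sorted as lineage-negative cells with Sca1 and cKit on their surface, the gate used for blood stem cells and early progenitors. All mice were C57BL/6 and 6 months old, and the alleles were conditional and confined to blood-forming tissue, per the labels and the series design. The Cre driver is not given in the sources used here. There were 4 groups of 3 libraries: Nras G12D (an activating mutation of a signalling GTPase), Tet2 knockout (loss of an enzyme that oxidises methylcytosine), the nonleukemic double mutant with both changes, and a double mutant labelled leukemic, called the leukemic double mutant below. That group is read from the prefix L of its titles and the series design. Its sample descriptions, alone among the groups, carry the letters BMT, which no label explains, and whatever they stand for cannot be told apart from leukemia in any contrast with this group. Every group carried at least 1 of the 2 changes, and wild-type libraries were not analysed here. The labels do not tie each library to a separate animal, so a p-value here speaks of the spread between libraries, which may be technical. Neither the sort nor the deletion of Tet2 can be checked from methylation values.

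Gnas encodes the stimulatory G protein subunit that couples hormone receptors to adenylyl cyclase. The locus is imprinted: its promoters differ in methylation between the parental copies, set in the germ line or soon after fertilisation. The promoter of Nesp, which encodes a secretory granule protein, is methylated on the paternal copy. The Nespas-Gnasxl promoters, for an antisense RNA and a longer form of the G protein subunit, and the exon 1A promoter, for an untranslated first exon, are methylated on the maternal copy. The promoter of Gnas itself is methylated on neither copy, although its expression is biased to the maternal copy in some tissues.

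The sequences of the outer promoters are shown because the locus was positioned by them. RefSeq lists 4 promoters under Gnas (build GRCm38.p6), and 2 of them were placed on mm9 by matching the spacing of their CpGs to the listed CpG positions, since no mm9 annotation was used. Each sequence holds the 250 bases before a start site on the plus strand, 5′ to 3′, and capitals mark the CpGs that were listed in at least 1 library. The first is the Nesp promoter at chr2:174109571-174109820, and the second the Gnas promoter at chr2:174155257-174155506.
Nesp promoter: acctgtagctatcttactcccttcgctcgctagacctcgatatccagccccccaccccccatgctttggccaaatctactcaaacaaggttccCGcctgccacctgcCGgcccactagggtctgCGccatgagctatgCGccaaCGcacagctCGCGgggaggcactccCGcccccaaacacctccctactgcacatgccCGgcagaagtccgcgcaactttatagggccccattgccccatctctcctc
Gnas promoter: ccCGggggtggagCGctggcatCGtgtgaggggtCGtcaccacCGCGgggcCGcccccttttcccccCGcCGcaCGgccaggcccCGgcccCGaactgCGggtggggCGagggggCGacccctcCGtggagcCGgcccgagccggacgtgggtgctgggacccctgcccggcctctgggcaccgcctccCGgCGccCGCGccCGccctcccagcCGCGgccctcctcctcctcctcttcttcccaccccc

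Over the full 300 bases of each RefSeq entry, 9 of 16 CpGs of the Nesp promoter and 30 of 40 CpGs of the Gnas promoter matched, against 5 and 6 at the next best place in the genome. The start sites lie 45686 bp apart. The other 2 Gnas entries, with 27 and 28 CpGs, were not placed. They hold no CCGG, the site that MspI cuts (either strand reads the same). Whether the lack of CCGG kept them from being placed was not tested. CCGG was found in 52.8% of the 32851 promoters of the table. Stretches between the placed promoters are therefore named by the order of the promoters, Nesp, Nespas-Gnasxl, exon 1A, Gnas, and not by an annotation.

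Reads covered the locus in islands. Member CpGs fell in 33 of the 65 tiles of 1 kb, and 20 tiles were read in all 12 libraries. Of the 486 CpGs, 92 were listed in 1 library only, and 299 had at least 10 reads in every library and lay under the limit on very high coverage. Those 299 are the CpGs tested below. Each library listed 350 to 385 of the members with a summed coverage of 27307 to 51177, and the median tested CpG held 74 to 125 reads. Over the whole genome the coverage of the listed cytosines summed to 96300485 to 199736369 per library, a read being counted at each CpG it covers. PCR copies count as reads here, because no molecular identifiers are named.

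In the 20 tiles read in all libraries, methylation was partial at the imprinted promoters, near 0 at the Gnas promoter and high in the tiles between and after them. The other 13 tiles with a member were read in 1 to 11 libraries, with means from 0% to 100%, and apart from the tile at 174163000 are not described further. Of the 299 tested CpGs, 179 had a mean over all libraries of 20 to 80%, 107 were under 20%, and 13 were over 80%. Tiles of 1 kb were classed by the same limits, and every tile kept its class when the limits were 25% and 75%. From the 5′ end the tiles read in all libraries formed a partly methylated Nesp stretch (174109000 to 174113999, 43 tested CpGs), a partly methylated Nespas-Gnasxl stretch (174120000 to 174126999, 99 tested CpGs), single highly methylated tiles at 174142000 and 174147000, a partly methylated exon 1A stretch (174152000 to 174154999, 42 tested CpGs), the unmethylated Gnas promoter stretch (174155000 to 174156999, 106 tested CpGs) and a highly methylated tile inside Gnas at 174160000. This order was seen in all 4 groups.

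**Figure D1:**
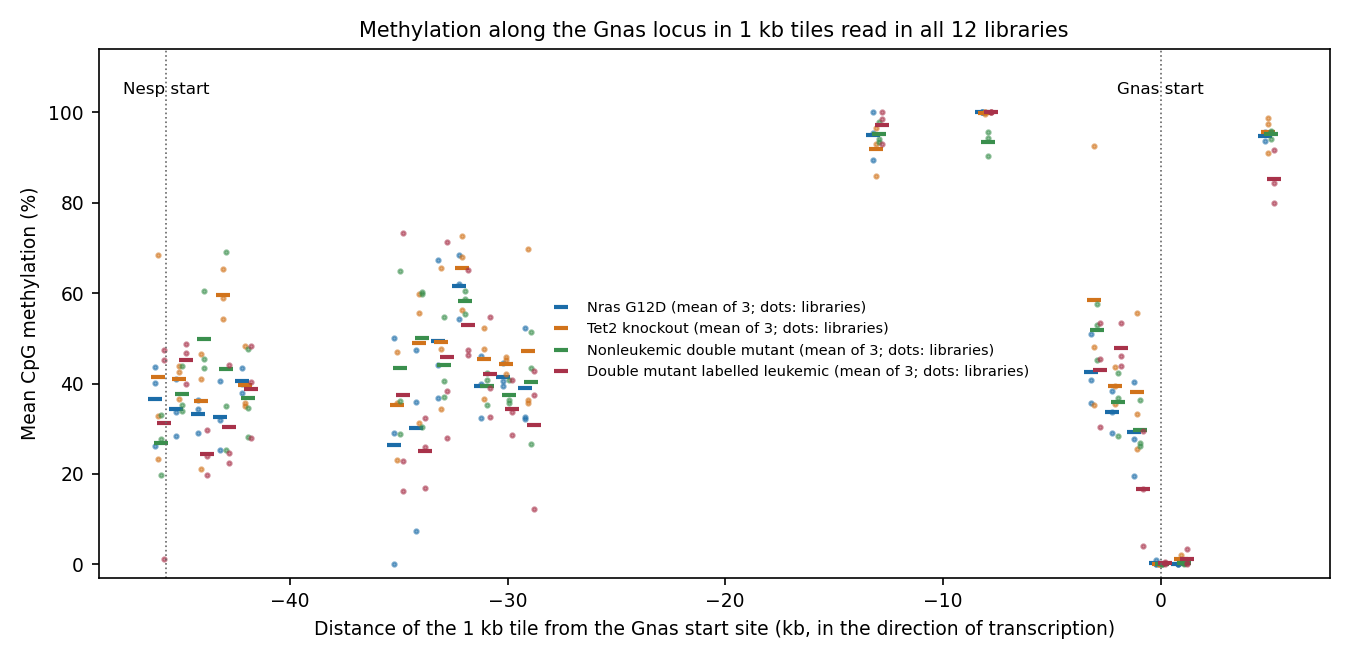
Mean methylation (percent, over all member CpGs a library listed) of the 20 tiles of 1 kb that were read in all 12 libraries, against the distance of the tile from the Gnas start site in kb. Dots are libraries and short bars are group means of 3. The Nesp and Nespas-Gnasxl tiles on the left are partly methylated in all groups, and the values drop to near 0 at the Gnas start.

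The Nesp stretch was partly methylated in every library and stayed below 50% in 12 of 12. In Nras G12D its mean over CpGs was 38.7%, 33.3% and 32.8%, and in Tet2 knockout 41.4%, 46.0% and 39.4%. The nonleukemic double mutant read 39.5%, 40.8% and 35.2%, and the leukemic double mutant 39.7%, 43.9% and 23.3%. The third leukemic library was the lowest of all, and the other 11 lay close together. The group means were 35.0% ± 3.26, 42.2% ± 3.38, 38.5% ± 2.93 and 35.6% ± 10.9 (SD, n = 3 each). Tet2 knockout lay above Nras G12D without overlap at this stretch, and the other groups overlapped with both. The 43 CpGs were alike, with means over all libraries from 23.4% to 51.3%.

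At the Nesp promoter printed above, 8 of the capital CpGs were tested. Their mean was 40.0%, 26.3% and 43.6% in Nras G12D and 32.9%, 68.4% and 23.2% in Tet2 knockout. The nonleukemic double mutant read 27.8%, 33.0% and 19.9%, and in the leukemic double mutant 38.4%, 47.4% and 1.25%. The highest value, in the second Tet2 knockout library, and the lowest, in the third leukemic library, came from groups whose other libraries lay near the rest, so all 4 groups overlapped.

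The tile with the most tested CpGs of the stretch, at 174110000 (20 CpGs), varied less. It read 41.3%, 36.6% and 34.4% in Nras G12D, and 43.4%, 30.7% and 41.9% in Tet2 knockout. It read 37.9%, 39.7% and 34.7% in the nonleukemic and 38.1%, 48.8% and 24.9% in the leukemic double mutant. Its group means of 37.4%, 38.7%, 37.4% and 37.3% were nearly equal, and the groups overlapped. This depended on the CpGs taken: over all 51 members of the tile, each library with those it listed, the group means were 34.5%, 41.1%, 37.6% and 45.1%, and the third leukemic library was the highest of the 12, at 48.8%.

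The Nespas-Gnasxl stretch was also partly methylated in every library, and 11 of 12 were below 50%. Its mean was 44.3%, 41.1% and 48.8% in Nras G12D and 46.4%, 55.2% and 49.5% in Tet2 knockout. It was 39.5%, 43.7% and 48.1% in the nonleukemic and 46.4%, 39.2% and 41.3% in the leukemic double mutant. The second Tet2 knockout library was the only one above 50%, and all groups overlapped. The group means were 44.7% ± 3.85, 50.4% ± 4.48, 43.8% ± 4.33 and 42.3% ± 3.72 (SD, n = 3 each).

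CpGs of this stretch were less alike than those of Nesp. While 94 of 99 had means of 20 to 80%, 4 were higher. The CpG at 174125493 had a mean of 97.5% and was between 78.2% and 100% in every library, while the 4 CpGs before it on the read end had means of 31.4% to 40.2%. It held a median of 55 reads against 123.5 at the CpG before it, so many reads that cover its neighbours gave no value there. Whether the missing reads were of either kind was not tested. The other 3, at 174123500, 174123515 and 174123527, had means of 81.3%, 88.1% and 85.6%. Only the CpG at 174125399 was lower, at 17.6%. These 5 were named after their values were seen. The tile that holds most of the high CpGs, at 174123000, had group means of 62.2%, 63.2%, 56.8% and 54.6%, the highest of the partly methylated tiles with at least 5 tested CpGs in each group.

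The exon 1A stretch was the lowest of the partly methylated stretches in 3 of the 4 groups, and all 12 libraries were below 50%. Its mean was 31.9%, 32.3% and 36.0% in Nras G12D and 46.6%, 43.9% and 31.8% in Tet2 knockout. It was 28.2%, 33.1% and 35.3% in the nonleukemic and 35.3%, 42.6% and 31.0% in the leukemic double mutant. The first 2 Tet2 knockout libraries were the highest, and the third lay just below the lowest Nras G12D library. The group means were 33.4% ± 2.28, 40.8% ± 7.89, 32.2% ± 3.67 and 36.3% ± 5.84 (SD, n = 3 each), with overlap between all groups.

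Of the exon 1A tiles with at least 3 tested CpGs, the one next to the Gnas promoter, at 174154000 (17 CpGs), spread the most. It read 22.1%, 29.7% and 38.0% in Nras G12D and 51.1%, 31.2% and 27.0% in Tet2 knockout. It read 23.7%, 26.7% and 23.2% in the nonleukemic and 10.4%, 40.7% and 8.33% in the leukemic double mutant. The first and the third leukemic libraries were the lowest of the 12, but their partner was the second highest, so the groups overlapped. The neighbouring tile at 174153000 (23 CpGs) kept to 27.7% to 45.7% in all libraries.

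**Figure D2:**
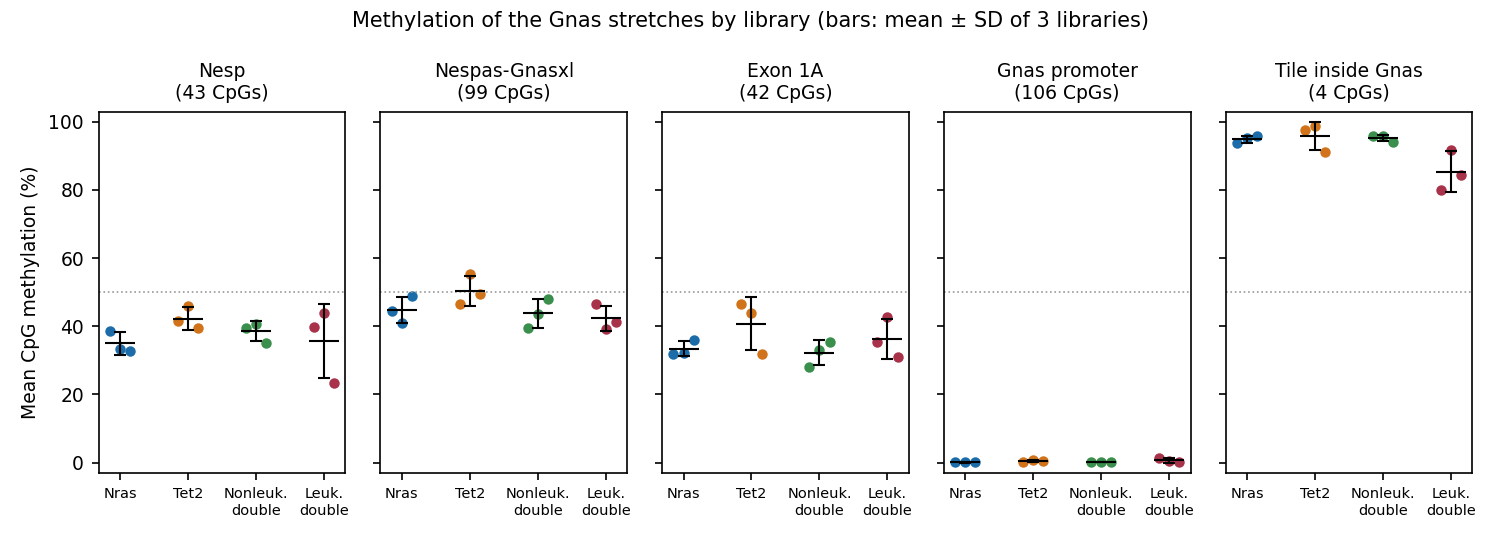
Mean methylation (percent, over tested CpGs) of 5 stretches of the locus in each library, by group. Points are libraries and bars are the mean ± SD of 3. The Nesp, Nespas-Gnasxl and exon 1A stretches lie between 23.3% and 55.2%, the Gnas promoter is at most 1.38%, and the tile inside Gnas has its lowest group mean in the leukemic double mutant, whose second library lies above the third Tet2 knockout library.

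The Gnas promoter stretch was unmethylated in all 4 groups. Its mean over 106 CpGs was 0.130%, 0.386%, 0.146% and 0.632% for Nras G12D, Tet2 knockout, nonleukemic and leukemic double mutant, and no library passed 1.38%. Of the 1272 values of a CpG in a library, 93.6% were 0, and 56 CpGs were 0 in every library. At the promoter printed above, the 24 tested CpGs had a mean of 0% to 0.374% per library. The tile with the most CpGs, at 174155000 (75 tested CpGs), read 0.0472%, 0.0323% and 0.399% in Nras G12D and 0.0114%, 0.0636% and 0.206% in Tet2 knockout. It read 0.266%, 0.0878% and 0.0745% in the nonleukemic and 1.22%, 0.295% and 0.130% in the leukemic double mutant. The first leukemic library was the highest, and the groups overlapped. A CpG at 0 in every library allows a share of up to 3.87% in a library (3 reads of its median coverage, for the median CpG), a limit that covers counting error only.

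Single CpGs departed from 0 in single libraries. The CpG at 174156025, 518 bp past the Gnas start, was 98.6% in the first leukemic library, 64.4% in the second Tet2 knockout library and 3.90% in the second leukemic library, and 0% in the other 9. It was named after its values were seen. In all, 9 values of at least 10% were found at 8 of the 106 CpGs, in Nras G12D, Tet2 knockout and leukemic libraries.

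The border between exon 1A and Gnas fell between neighbouring tested CpGs. The last tested CpG of at least 20%, at 174154239, lies 1268 bp before the Gnas start and had a mean of 28.6% with libraries from 0% to 67.2%. The next tested CpG, at 174155193, had a mean of 0.601% and at most 7.21%. The border thus falls within 954 bp in every group: the group means at its 2 sides were 30.4% and 0% in Nras G12D, 36.7% and 0% in Tet2 knockout, 21.8% and 0% for the nonleukemic and 25.4% and 2.40% in the leukemic double mutant. Between them, 26 CpGs were listed in at most 5 libraries each, with values from 0% to 75%, and no finer position was taken from them.

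**Figure D3:**
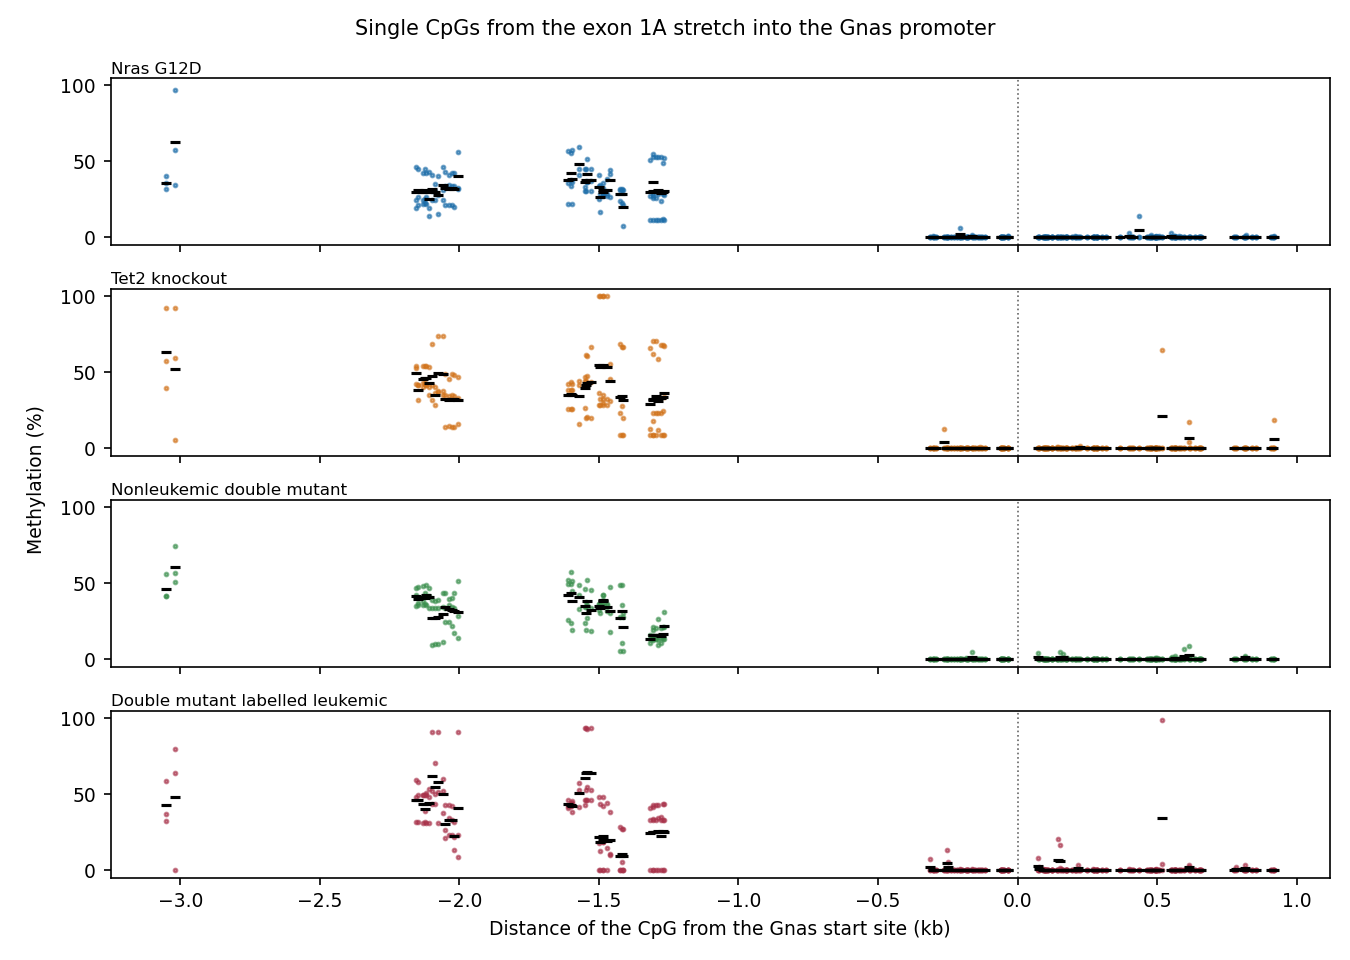
Methylation (percent) of single tested CpGs from the exon 1A stretch into the Gnas promoter against the distance from the Gnas start in kb, with 1 panel a group. Dots are libraries and bars are group means. All panels show partial methylation up to 1268 bp before the start and values mostly at or near 0 in the Gnas promoter, where 8 CpGs reach at least 10% in single libraries. The highest is a CpG 518 bp past the start in the Tet2 knockout and leukemic panels.

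Highly methylated tiles lay between and after the promoters. The tile at 174142000 (3 CpGs) had group means of 91.3%, 89.6%, 92.7% and 99.0%, and the tile at 174147000 (2 CpGs) 100%, 99.88%, 93.5% and 100%. Single libraries of the first read 82.6%, 91.2% and 100% in Nras G12D, 90.7%, 100% and 78.1% in Tet2 knockout, 91.7%, 97.0% and 89.6% in the nonleukemic and 100%, 97.0% and 100% in the leukemic double mutant, so the groups overlapped or met. At the second tile the nonleukemic double mutant, with 95.7%, 94.4% and 90.5%, lay below every other library, and the tile held too few CpGs to be tested. The tile at 174160000 inside Gnas is given below with its test. The tile at 174163000 was read in 11 libraries, with group means of 96.9%, 98.2% and 96.6% in the groups not labelled leukemic.

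The libraries themselves spread widely at the partly methylated promoters. A read end is a set of neighbouring CpGs on a strand that lie within 1 read length of each other, so its CpGs can share reads. The MspI cuts were not located, so a set can also join reads with different starts. The values per read end below rest on this grouping. The locus held 37 read ends with at least 3 CpGs and a mean of 20 to 80%: 10 in the Nesp, 19 in the Nespas-Gnasxl and 8 in the exon 1A stretch. The SD between libraries of a group had a median of 17.8 percentage points over these read ends (interquartile range 14.97 to 19.7), against a median of 5.64 that counting reads alone would give. The first was larger than the second at 37 of 37. The CpGs within a read end differed little, with a median SD of 3.19 points, so most of the spread lay between libraries and not between neighbouring CpGs.

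The size was alike in the stretches, with a median SD of 18.3 points in Nesp, 17.8 in Nespas-Gnasxl and 18.8 in exon 1A. Expressed as draws of an all-or-none molecule, the spread equals that of a median of 7.73 independent draws (interquartile range 5.86 to 10.7), although the read ends held a median of 82.7 reads. Independent cells, PCR copies and biological differences between animals cannot be told apart in this number. In the 8679 partly methylated read ends of the other autosomal loci, the median SD was 11.0 points and the draws 17.5, and their CpGs differed among themselves by 15.8 points. Of these, 89.9% had a smaller SD between libraries than the median of the Gnas read ends. That difference was not tested, and the other read ends are no matched set.

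The read ends show where the spread lies. The forward end at the Nesp promoter, from 174109678 to 174109726 (6 CpGs within the printed sequence), read 40.2%, 30.8% and 53.9% in Nras G12D and 30.4%, 88.8% and 7.63% in Tet2 knockout. It read 25.5%, 33.3% and 13.4% in the nonleukemic and 42.0%, 52.7% and 2.05% in the leukemic double mutant. The highest value and a value near the lowest thus came from libraries of the same group. The reverse end from 174109725 to 174109772 (4 CpGs) overlaps it and reads the CpGs at 174109724 and 174109726 on the other strand. This reverse end was 34.3% in the second and 44.9% in the third Tet2 knockout library. The Tet2 knockout extremes of the forward end were thus not shared by the other strand. The third leukemic library was low at both, at 0% on the second.

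Other ends reached both limits. The reverse end from 174110206 to 174110254 (7 CpGs) read 25.3%, 17.1% and 40.3% in Nras G12D and 27.1%, 0.762% and 90.6% in Tet2 knockout. It read 39.3%, 27.9% and 31.4% in the nonleukemic and 98.2%, 43.6% and 27.1% in the leukemic double mutant. The end at exon 1A from 174154008 to 174154046 (6 CpGs) was 100% in the second Tet2 knockout library and 0% in the first leukemic library, and 21.6% to 52.0% in the other 10. No group was high or low as a whole at either end. Both were named after their values were seen.

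The libraries did not share this equally. The root mean square deviation of a library from the mean of all 12 over the 37 read ends was 27.3 points in the second Tet2 knockout library, 24.6 in the third and 22.2 in the first leukemic library. In the other 9 it was 9.73 to 17.1. The same 3 libraries had 5, 8 and 3 read ends under 10% and 9, 5 and 6 over 70%. Their median reads were 64, 84.3 and 101, within a range of 64 to 101 over all libraries, so the lowest and the highest coverage both belonged to libraries that stood apart. At partly methylated read ends of other loci the 3 libraries also had large deviations, 17.6, 20.3 and 18.2 points, within a range of 8.74 to 20.3. Results below are therefore given with and without these 3 libraries where they bear on a call.

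**Figure D4:**
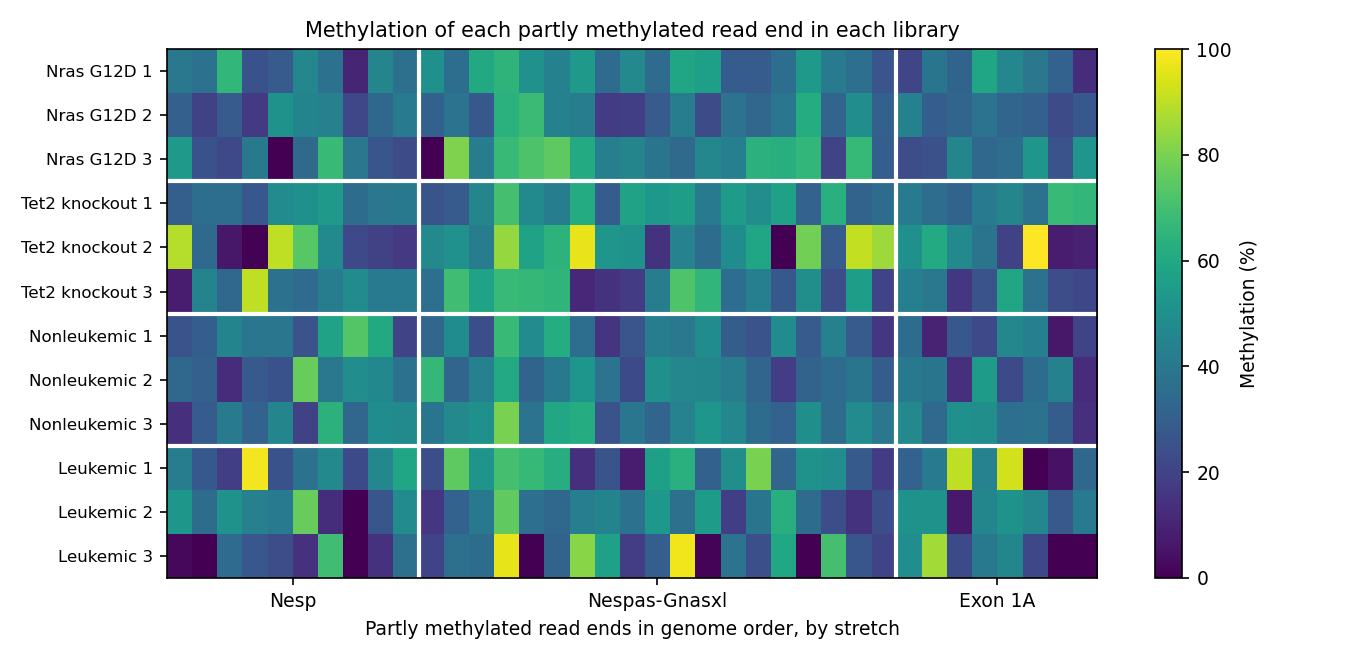
Methylation (colour, percent) of the 37 partly methylated read ends of the locus in genome order (columns) in each library (rows, grouped). White lines separate stretches and groups. Most cells are near the overall level, and the second Tet2 knockout and the first and the third leukemic libraries hold most of the cells near 0% or 100%.

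**Figure D5:**
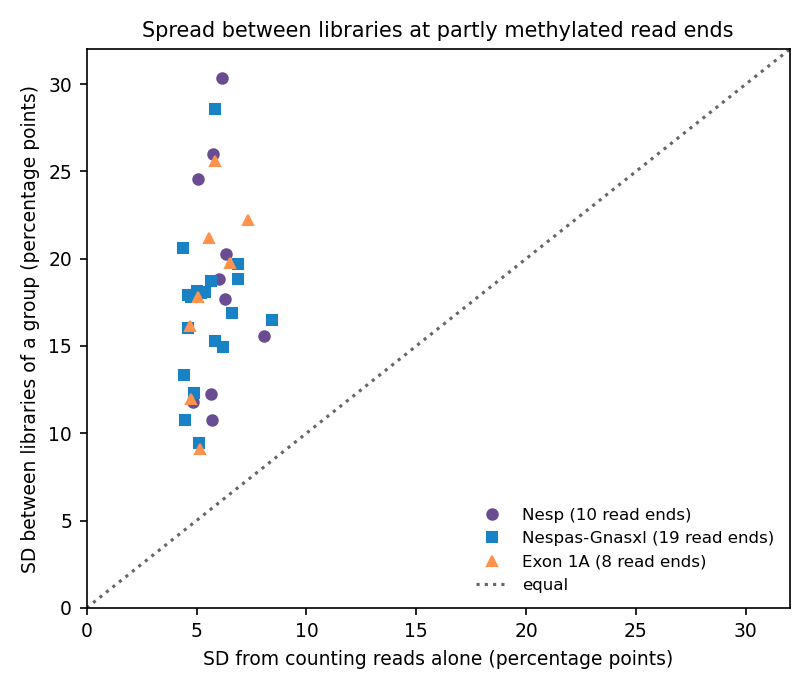
SD between libraries of a group (vertical, percentage points) against the SD that counting reads alone would give (horizontal, percentage points) for the 37 partly methylated read ends, by stretch. All points lie above the dotted line of equal values.

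The strands gave a second view of the same spread, since bisulfite separates the strands of a CpG and each is read by itself. For 69 partly methylated CpGs with both strands read, 601 pairs of values were at hand. The median difference between strands in a library was 15.6 points (interquartile range 7.69 to 29.9), against a median counting error of 8.24 points. In 53 pairs, 8.82%, the strands differed by more than 50 points. Neighbouring CpGs share reads and repeat a difference, so the pairs are not independent and the percentage is no rate over separate observations. The largest difference, 98.8 points, was at 174125015 in the third leukemic library, where the forward strand read 98.8% in 80 reads and the reverse strand 0% in 15. Over all pairs the means of the strands were 36.9% forward and 40.1% reverse.

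The first comparison of genotypes asked how Tet2 knockout and Nras G12D differ at the locus. The mean of the 179 partly methylated CpGs was 39.2%, 36.0% and 41.5% in Nras G12D and 44.5%, 49.7% and 42.2% in Tet2 knockout. The Tet2 knockout libraries were all higher, without overlap. The group means were 38.9% ± 2.76 and 45.4% ± 3.83 (SD, n = 3 each), and the difference of 6.54 points had a two-sided exact permutation p of 0.1, the smallest that 3 libraries against 3 allow, and 0.2 after adjustment over the 6 contrasts. Without the second Tet2 knockout library the difference was 4.31 points, smaller by more than 1.5 times.

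By tile, none of the 16 tiles with at least 3 tested CpGs was called between Tet2 knockout and Nras G12D. A tile was called at an adjusted p under 0.05 in the quasi-binomial model over all 81040 tiles of the genome and a difference of at least 10 points, and 0.0% of all tiles were called. None of the 16 had an unadjusted p under 0.05, against 5.96% of all tiles. Limma called 0 and had 1 at an unadjusted p under 0.05. Here and below, the shares of all tiles or CpGs called or under that p are those of the quasi-binomial model. Such shares were not counted for limma. At 1 of the 16 the libraries did not overlap, against 11.4% of all tiles. None of the 299 CpGs was called at 25 points (0.000436% of 916381 CpGs). An unadjusted p under 0.05 was found at 9, against 5.83% of all CpGs. Limma called 0 CpGs and had 8 there. The largest difference was at 174121000 (3 CpGs), 27.9 points higher in Tet2 knockout, with an adjusted p of 0.842. There the Nras G12D libraries read 53.6%, 35.4% and 0%, and without the third the difference was 13.1.

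Partly methylated tiles of the locus can be read beside those of the genome. Of the 12 at the locus, 0 were lower in Tet2 knockout, with a median difference of 5.22 points. Of 10970 partly methylated tiles of the genome 28.8% were lower, with a median difference of 3.87 points. Whether the locus differs from the rest was not tested.

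The next comparison set the nonleukemic double mutant beside Nras G12D. At the partly methylated CpGs its libraries read 36.2%, 39.6% and 41.2%, with a mean of 39.0% ± 2.53 (SD, n = 3). The difference from Nras G12D was 0.110 points (exact permutation p 0.9, adjusted 0.9), and libraries overlapped. The p does not show that the groups are alike, and leaving out 1 library at a time gave differences from -1.41 to 1.42 points. Of the 16 tiles 0 were called (0.00247% of all tiles), with 1 at an unadjusted p under 0.05 (against 2.85% of all). Limma called 0 and had 0 there. That tile, at 174111000 in the Nesp stretch, was 16.1 points higher in the nonleukemic double mutant without overlap between libraries (unadjusted p 0.0317, adjusted 1), and 9715 of 81040 tiles (12%) had no overlap. Of the CpGs 0 were called (0.000436% of all), with 7 at an unadjusted p under 0.05 (against 5.36% of all), and limma called 0 with 9. The largest tile difference, 16.6 points at 174121000, was 1.77 without the third Nras G12D library.

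Against Tet2 knockout the nonleukemic double mutant was lower at the partly methylated CpGs, without overlap between the libraries. The difference was -6.43 points (exact permutation p 0.1, adjusted 0.2). With each library left out in turn the difference was -8.06 to -4.33 points. The value of -4.33 was without the second Tet2 knockout library. At 11 of the 12 partly methylated tiles the nonleukemic double mutant was lower, with a median difference of -6.92 points. The same held at 59.9% of the partly methylated tiles of the genome, with a median of -1.52. No tile of the 16 was called (0.0% of all tiles). None had an unadjusted p under 0.05 (against 3.36% of all), and limma called 0 and had 0 there. At 2 of the 16 the libraries did not overlap (11.2% of all tiles). No CpG was called (0.0% of all), with 5 at an unadjusted p under 0.05 (against 5.38% of all), and limma called 0 with 4. The largest tile difference, -14.9 points at 174113000, rested on the second Tet2 knockout library. The Tet2 knockout libraries read 40.3%, 74.6% and 36.6% there and the nonleukemic libraries 27.3%, 35.9% and 43.5%. Nras G12D read 34.8%, 40.95% and 33.0% and the leukemic double mutant 53.6%, 37.4% and 44.8%. Without the second Tet2 knockout library the difference was -2.89.

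The comparison of the double mutants asked how methylation at the locus differs with leukemia. The partly methylated CpGs had means of 41.4%, 40.1% and 33.7% in the leukemic libraries, 38.4% ± 4.11 (SD, n = 3), and differed from the nonleukemic libraries by -0.609 points, with overlap (exact permutation p 0.9, adjusted 0.9). Without the third leukemic library the leukemic group was 1.73 points higher. At 7 of the 12 partly methylated tiles the leukemic group was lower, with a median difference of -0.126 points. Of the partly methylated tiles of the genome 80.2% were lower, with a median of -7.96 points. The difference between the locus and the genome was not tested.

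A tile of the 16 was called between the double mutants, lower in the leukemic group, against 3.99% of all tiles called, of which 3148 of 3237 were lower. It lies at 174111000 in the Nesp stretch, 8 CpGs with 493 to 1064 reads a library. The nonleukemic libraries read 55.8%, 43.9% and 46.9%, and the leukemic libraries 29.9%, 30.0% and 19.3%. Over the whole tile the groups did not overlap, with means of 48.8% ± 6.16 and 26.4% ± 6.18 (SD, n = 3 each). The difference was -22.4 points with an adjusted p of 0.0410. Its read ends were not alike. The reverse end from 174111063 (3 CpGs, median 31.5 reads) read 22.4%, 0% and 0% in leukemic and 73.2%, 49.1% and 32.9% in nonleukemic libraries. That from 174111185 (4 CpGs) read 46.35%, 26.85% and 14.2% against 60.8%, 46.5% and 48.7%. At the forward end from 174111093 (2 CpGs) the groups overlapped, at 0.54%, 47.7% and 28.5% against 40.1%, 35.3% and 47.3%.

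The call at 174111000 depended on the setting and on single libraries. The other groups, at 40.8%, 29.9% and 27.7% in Nras G12D and 43.3%, 22.4% and 46.3% in Tet2 knockout, both overlapped with the leukemic libraries, and Tet2 knockout overlapped with the nonleukemic libraries too. The leukemic group mean was the lowest of the 4 and the nonleukemic the highest. The call was lost in limma (adjusted p 0.343), at 20 reads (0.0722), in a fit on the 6 libraries alone (0.0932), without any 1 of the nonleukemic libraries (0.110 to 0.148) and without the third leukemic library (0.101). Without the first leukemic library it stayed, at an adjusted p of 0.0358.

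Of the 16 tiles, 4 had an unadjusted p under 0.05 between the double mutants, 2 in each direction, and 22.4% of all tiles did. At 2 of the 16 the libraries did not overlap, both lower in the leukemic group, as at 22.4% of all tiles. The second was the tile inside Gnas at 174160000, with a difference of -11.7 points (adjusted p 0.141). Limma called 0 tiles, with 3 at an unadjusted p under 0.05. Among the CpGs 0 were called (0.0124% of all). An unadjusted p under 0.05 was found at 18 of the 299 (against 11.9% of all CpGs), of which 10 were higher in the leukemic group. Limma called 0 and had 27 there, with its share of all CpGs not counted.

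The leukemic double mutant was also lower than Tet2 knockout at the partly methylated CpGs, by a difference of -7.04 points without overlap (exact permutation p 0.1, adjusted 0.2). The difference was -4.81 without the second Tet2 knockout library, -8.54 without the first leukemic library and -4.70 without the third. At 11 of the 12 partly methylated tiles it was lower, with a median of -7.95 points, and at 81.3% of those of the genome, with a median of -9.50.

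The tile called in this contrast was the highly methylated one inside Gnas at 174160000 (4 CpGs, 331 to 647 reads a library), 1 of 16 against 7.68% of all tiles called, of which 6096 of 6222 were lower. The Tet2 knockout libraries read 97.7%, 98.3% and 95.5%, and the leukemic libraries 72.7%, 93.7% and 83.4%. Nras G12D read 95.9%, 95.6% and 94.2%, and the nonleukemic double mutant 96.1%, 94.6% and 94.3%. With the reads of the tile pooled, as in these values and the test, all 3 leukemic libraries lay below the other 9. With each CpG weighted equally the second leukemic library, at 91.7%, lay above the third Tet2 knockout library, at 91.1%, so the groups of this contrast then overlapped. The difference from Tet2 knockout, between means of 83.3% ± 10.5 and 97.2% ± 1.45 (SD, n = 3 each), was -13.9 points with an adjusted p of 0.0333.

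This call too depended on single libraries. The difference from Nras G12D at the tile, -11.95 points, had an adjusted p of 0.141 and was not called. The adjusted p against Tet2 knockout was 0.0728 in limma and 0.206 in a fit on the 6 libraries, and 0.0589 to 0.105 without any 1 of the Tet2 knockout libraries. Without the first leukemic library the difference was -8.61 points (adjusted p 0.0443), under the 10 points a call needs. Without the third it was -13.9 (0.0552), and without the second -19.1 (0.00456). In the first leukemic library the values were uneven within the tile: the CpG at 174160045 read 27.3% there and 88.8% to 100% in the other 11 libraries.

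The largest difference between the leukemic double mutant and Tet2 knockout was at 174126000, the 3′ end of the Nespas-Gnasxl stretch (9 CpGs). The Tet2 knockout libraries read 34.6%, 71.7% and 37.7% and the leukemic libraries 12.7%, 28.6% and 33.4%, without overlap. The difference of -23.1 points missed the threshold (adjusted p 0.0562) and was -11.3 without the second Tet2 knockout library. Nras G12D read 30.6%, 36.1% and 55.2% there and the nonleukemic double mutant 23.6%, 36.5% and 43.5%, both overlapping with the leukemic libraries.

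Of the 16 tiles, 4 had an unadjusted p under 0.05 between the leukemic double mutant and Tet2 knockout, and 27.7% of all tiles did. At 2 of the 16 the libraries did not overlap (21.4% of all tiles). Limma called 0 tiles, with 1 at an unadjusted p under 0.05. No CpG was called (0.047% of all), with 13 of 299 at an unadjusted p under 0.05 (against 12.6% of all), and limma called 0 with 37.

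Between the leukemic double mutant and Nras G12D the partly methylated CpGs differed by -0.499 points, with overlap (exact permutation p 0.8, adjusted 0.9). Without the third leukemic library the difference was 1.84 points. None of the 16 tiles was called (2.07% of all tiles), with 4 at an unadjusted p under 0.05 (19.5% of all), 2 in each direction. Limma called 0 with 2. The largest difference, -15.7 points, was again at 174126000 (adjusted p 0.206), where the libraries overlapped, and 1 tile, at 174160000, had no overlap (17.6% of all tiles). Among the CpGs 0 were called (0.0% of all), with 17 of 299 at an unadjusted p under 0.05 (against 11% of all), and limma called 0 with 19. The contrasts share groups, so their values at the locus do not count as separate evidence.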

How the data were processed

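Reduced representation bisulfite sequencing was done in 12 libraries: DNA cut with MspI, fragments of 150 to 400 bp, reads of 50 bp from a single end, per the labels' protocols. Bismark and build mm9 are named in the submitters' processing notes, with no version of Bismark. The deposited tables give per cytosine of a CpG its coverage, a count of reads (at least 10), and the percent of reads with C and with T.

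Reads were recomputed from coverage and percent, and the strands of a CpG were summed. Tested CpGs had at least 10 reads in every library and lay under the 99.9th percentile of coverage. Methylated and unmethylated reads of 916381 CpGs and 81040 tiles of 1000 bp with at least 3 CpGs were fitted on group in a quasi-binomial model over all 12 libraries (8 residual degrees of freedom), with the Pearson dispersion moderated by limma's squeezeVar and floored at 1, an F test and Benjamini-Hochberg adjustment. Calls needed an adjusted p under 0.05 and 10 points for tiles or 25 for CpGs. A mean per library over CpGs was compared by a two-sided exact permutation test. The script was tested on simulated data. Named in full was the tile with the most member CpGs, tested or not, of each zone of like tiles. Called tiles and CpGs and the largest tile difference of each contrast were also named in full. The Nesp and Nespas-Gnasxl stretches form 1 zone. Its tile with the most tested CpGs, at 174125000 (37 CpGs), is not given by library. Stretches were split at gaps in coverage, read ends were formed and promoters placed (at least 8 matched CpGs, 3 more than the next place) after the data had been seen. The members and lists were chosen with earlier results of these data known. Alternatives were other coverage minimums, tile sizes, effect sizes and weights, single strands, limma on log2((methylated + 1)/(unmethylated + 1)), a fit on 6 libraries, a replicate block, and each library left out. The software was R 4.3.3 with limma 3.58.1, and Python 3.11.15 with pandas 2.3.3, NumPy 2.4.6, SciPy 1.17.1 and matplotlib 3.10.9.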

Additional observations from a re-analysis of the deposited data

How the results depend on the processing

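The 0 counts of called CpGs did not change under any alternative run, nor did the 0 counts of called tiles among the groups not labelled leukemic. Tiles called between the double mutants, 1 here, were 0 in limma, at 20 reads, in the fit on 6 libraries, with tiles of 500 or 2000 bp and with at least 1 CpG per tile. They were 0 to 3 with 1 library left out, the 3 without the second leukemic library. Between the leukemic double mutant and Tet2 knockout the count was 0 in limma and in the fit on 6 libraries, 2 with tiles of 2000 bp, 2 with the spread moderated over features with a dispersion above 0 (added after seeing the data), and 0 to 2 with 1 library left out. Against Nras G12D it was 0 to 2. The share of all tiles called was counted in the main setting only. There it was 3.99% between the double mutants, 7.68% against Tet2 knockout and 2.07% against Nras G12D. The counts under the alternatives thus have no share of all tiles beside them. The replicate block left 1 tile called between the double mutants (174111000, adjusted p 0.0480) and 1 against Tet2 knockout (174160000, 0.0284) and changed no call. Deviations of same-numbered libraries were hardly correlated (-0.0121 to 0.0217, 0 of 18 pairs over 0.1), and 5 libraries correlated best with their own number. The labels do not say what the numbers stand for, and these correlations cannot tell whether same-numbered libraries share an origin. Small differences of means changed sign, and the cause was not tested. At 20 reads the leukemic minus nonleukemic difference was 0.773 over the window and 1.17 over partly methylated CpGs, the leukemic minus Nras G12D difference 0.546 and 0.779, and the nonleukemic minus Nras G12D difference at partly methylated CpGs -0.395. The last was -1.22 with CpGs weighted by coverage and -0.00873 over all CpGs read in a library. With 1 library left out, the differences over the window were -1.17 to 1.35 (leukemic minus nonleukemic), -1.17 to 1.35 (leukemic minus Nras G12D) and -0.818 to 0.907 (nonleukemic minus Nras G12D). Over partly methylated CpGs they were -2.10 to 1.73, -2.10 to 1.84 and -1.41 to 1.42. The differences from Tet2 knockout kept their sign.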

Other observations

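Promoters of other imprinted genes can be set beside the Gnas values. Whether these RefSeq promoters hold the imprinted region of their gene was not checked, so they are no scale for an imprint. Of 25 listed genes, 20 had a RefSeq promoter in the table, and 7 were placed on the listed CpGs by the same pattern match. Means over the promoter CpGs are given as values, with no test. At Plagl1, a growth-regulating zinc finger gene, the group means were 24.97%, 33.1%, 34.3% and 33.7% (Nras G12D, Tet2 knockout, nonleukemic and leukemic double mutant). At Igf2r, the receptor that clears the growth factor Igf2, they were 24.6%, 45.9%, 34.9% and 27.1%. The Tet2 knockout libraries there, at 43.2%, 49.6% and 44.8%, lay above the other 9. At Zrsr1, a splicing factor gene, the group means were 38.8%, 44.6%, 41.3% and 21.7%. Its leukemic libraries, at 13.9%, 24.0% and 27.2%, lay below the other 9. These 3 promoters were partly methylated, like Nesp. How often 1 group lies apart in this way at other promoters was not counted. Grb10 was at most 1.91%, Zim1 2.61% to 8.57% and Mcts2 at least 91.7% in every library. Rasgrf1 was placed but held no tested CpG.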
